A study of Mus musculus with 72 samples.

Results

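ChREBP is the transcription factor through which many cells turn high glucose into a change of gene expression. Its gene, Mlxipl, and 4 genes widely used as readouts of its activity, Txnip, Arrdc4, Pklr and Gpd1, were followed here in mouse pancreatic islets. They were found by symbol in the deposited table of 14604 genes, in which each of the 5 has 1 entry. Islets of male mice (age 8 weeks in the labels) gave the 69 libraries, and the mice were on a high-fat diet (HFD) or on regular chow (RC) for 5, 13 or 33 days. Both diets were given to DBA/2J, BALB/cJ and C57BL/6J mice (the last also spelled C56BL/6J in the labels), which makes 18 groups of 4 libraries, or of 3 in DBA/2J HFD at day 13, DBA/2J RC at day 33 and C57BL/6J RC at day 33. Each library held 120 to 150 hand-picked islets of 1 mouse, which had recovered overnight in culture, so every library had also spent a night outside the animal. The labels name no genetic change or drug in any group.

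The pathway runs from glucose metabolism to DNA. ChREBP is held back at low glucose, and products of glucose metabolism release it to bind, with its partner Mlx, to carbohydrate response elements, which are paired E-box-like motifs a short distance apart. Txnip encodes thioredoxin-interacting protein, an alpha-arrestin that binds thioredoxin and lowers glucose uptake, and is among the most strongly glucose-induced genes of beta cells. Arrdc4 encodes a closely related alpha-arrestin. Pklr encodes the liver and red cell pyruvate kinase, the last enzyme of glycolysis, and Gpd1 the cytosolic glycerol-3-phosphate dehydrogenase, which feeds glycerol phosphate synthesis and a shuttle to the mitochondria. Mlxipl gives a full-length alpha form and, from another promoter, a shorter and more active beta form that ChREBP itself induces. Reads were counted per gene, so the forms of Mlxipl, and the liver and red cell forms of Pklr, are summed in every value below.

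In GENCODE mouse release 21 (GRCm38) the 5 genes are protein-coding and lie on 4 chromosomes. Mlxipl is at chr5:135089890-135138382 on the + strand, Txnip at chr3:96557957-96561883 (+), Arrdc4 at chr7:68736995-68749241 (-), Pklr at chr3:89136142-89146784 (+) and Gpd1 at chr15:99717515-99725005 (+).

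The promoter windows below show which of these genes carry the letters that ChREBP and Mlx are known to bind. RefSeq windows (GRCm38.p6) of 250 bases before and 50 bases after an annotated start were at hand for 4 of the 5 genes, with 6 start sites in all, and Gpd1 was without an entry. Each was searched on both strands for a carbohydrate response element, spelled CACGNG, then 5 bases of any kind, then CNCGNG, and for the single E-box CACGTG, and no match of one overlapped a match of the other. The sequences run 5′ to 3′ on the gene's strand, and capitals mark the matches.
Txnip, chr3:96557707-96558006, + strand: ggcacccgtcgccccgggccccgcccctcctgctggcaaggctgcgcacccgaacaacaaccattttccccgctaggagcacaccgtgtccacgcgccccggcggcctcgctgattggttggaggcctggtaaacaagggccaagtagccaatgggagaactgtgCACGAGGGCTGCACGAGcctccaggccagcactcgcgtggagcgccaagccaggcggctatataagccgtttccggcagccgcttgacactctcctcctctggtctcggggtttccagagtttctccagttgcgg
Pklr, downstream start, chr3:89136373-89136672, + strand: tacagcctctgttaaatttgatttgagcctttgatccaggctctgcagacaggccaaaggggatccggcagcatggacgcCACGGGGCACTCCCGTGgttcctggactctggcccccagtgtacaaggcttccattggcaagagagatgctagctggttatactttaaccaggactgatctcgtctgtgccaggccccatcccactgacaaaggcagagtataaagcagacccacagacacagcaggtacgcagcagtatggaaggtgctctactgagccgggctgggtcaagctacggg
Arrdc4, chr7:68749189-68749488, - strand: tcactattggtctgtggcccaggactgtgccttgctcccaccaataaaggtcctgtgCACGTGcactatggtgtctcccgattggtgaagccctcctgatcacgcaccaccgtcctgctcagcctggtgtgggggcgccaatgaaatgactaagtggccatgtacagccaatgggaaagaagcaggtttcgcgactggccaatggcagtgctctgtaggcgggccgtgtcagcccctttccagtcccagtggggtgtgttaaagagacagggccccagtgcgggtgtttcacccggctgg
Mlxipl, upstream start, chr5:135089640-135089939, + strand: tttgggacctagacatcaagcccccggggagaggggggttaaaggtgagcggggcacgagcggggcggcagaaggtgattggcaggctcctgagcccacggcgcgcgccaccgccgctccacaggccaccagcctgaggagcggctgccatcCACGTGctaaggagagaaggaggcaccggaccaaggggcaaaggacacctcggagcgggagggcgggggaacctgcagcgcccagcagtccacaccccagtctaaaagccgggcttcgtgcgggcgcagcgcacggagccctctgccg

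The paired motif was found at Txnip, from base -85 to base -69 relative to the start, and at the downstream start of Pklr, from base -170 to base -154, where it reads as a match on either strand. The single E-box was found at Arrdc4, from base -193 to base -188, and at the upstream start of Mlxipl, from base -98 to base -93. The downstream start of Mlxipl, 17001 bases further on, and the upstream start of Pklr held neither motif in their windows. Among 32851 RefSeq promoter windows of the same length, 120 (0.365%) held the paired motif and 2349 (7.15%) the E-box. A match describes the letters only.

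**Figure D1:**
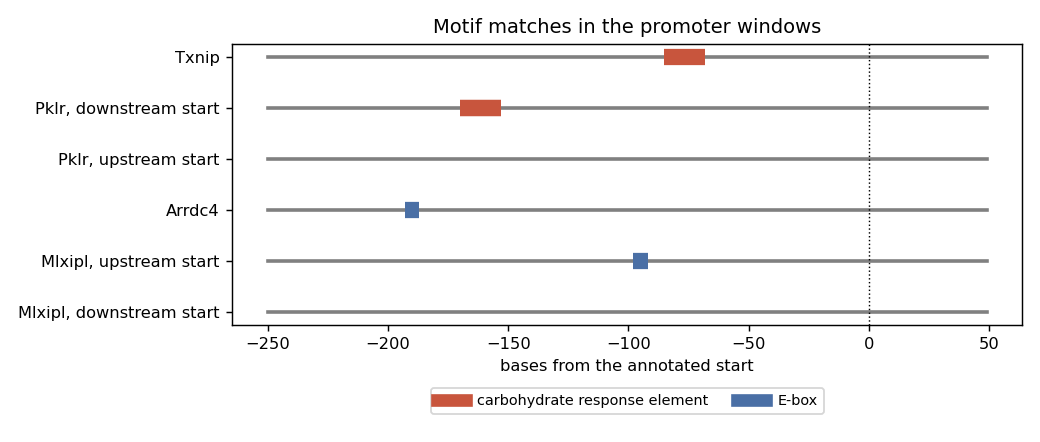
Position of the motif matches in the 6 promoter windows, in bases from the annotated start. The paired carbohydrate response element appears at Txnip and at the downstream start of Pklr, and the single E-box at Arrdc4 and at the upstream start of Mlxipl.

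All 5 genes were expressed in every library. Levels are given as deposited, in log2 CPM, where CPM are counts scaled to the size of each library. They rested on 2335 to 14529 reads per library for Mlxipl, 2617 to 13796 for Txnip, 181 to 966 for Arrdc4, 217 to 995 for Pklr and 554 to 1855 for Gpd1. Per kilobase of exon, Txnip was the most abundant, at 88.6 ± 28.3 CPM per kilobase (mean ± SD over 69 libraries), followed by Mlxipl at 45.2 ± 14.2, Gpd1 at 14.1 ± 2.71, Pklr at 6.38 ± 1.29 and Arrdc4 at 4.66 ± 1.51. On the same per-length scale Mlxip, the paralog of ChREBP also called MondoA, stood at 10.8 ± 0.930 and Mlx at 25.8 ± 2.5. Gpd2, the mitochondrial partner of Gpd1, stood at 23.8 ± 4.77, and Pkm, the other pyruvate kinase gene, at 109 ± 13.5 CPM per kilobase. The mean level of Mlxipl was thus above that of Mlxip, and that of Pklr below that of Pkm.

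The libraries held 12292621 to 34591079 reads in the listed genes, with a median of 22756199, and Ins1 and Ins2 took 11.5% to 23.3% of them. All 10 beta-cell markers checked were in the table, and they summed to 129834 to 275397 CPM per library, against 240 to 38802 CPM for 10 acinar markers. In whole islets fewer cells of a type and less RNA per cell cannot be told apart. The number in each sample title has no meaning given in the labels, and in C57BL/6J at day 5 it did not overlap between diets, so number and diet cannot be told apart there.

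**Figure D2:**
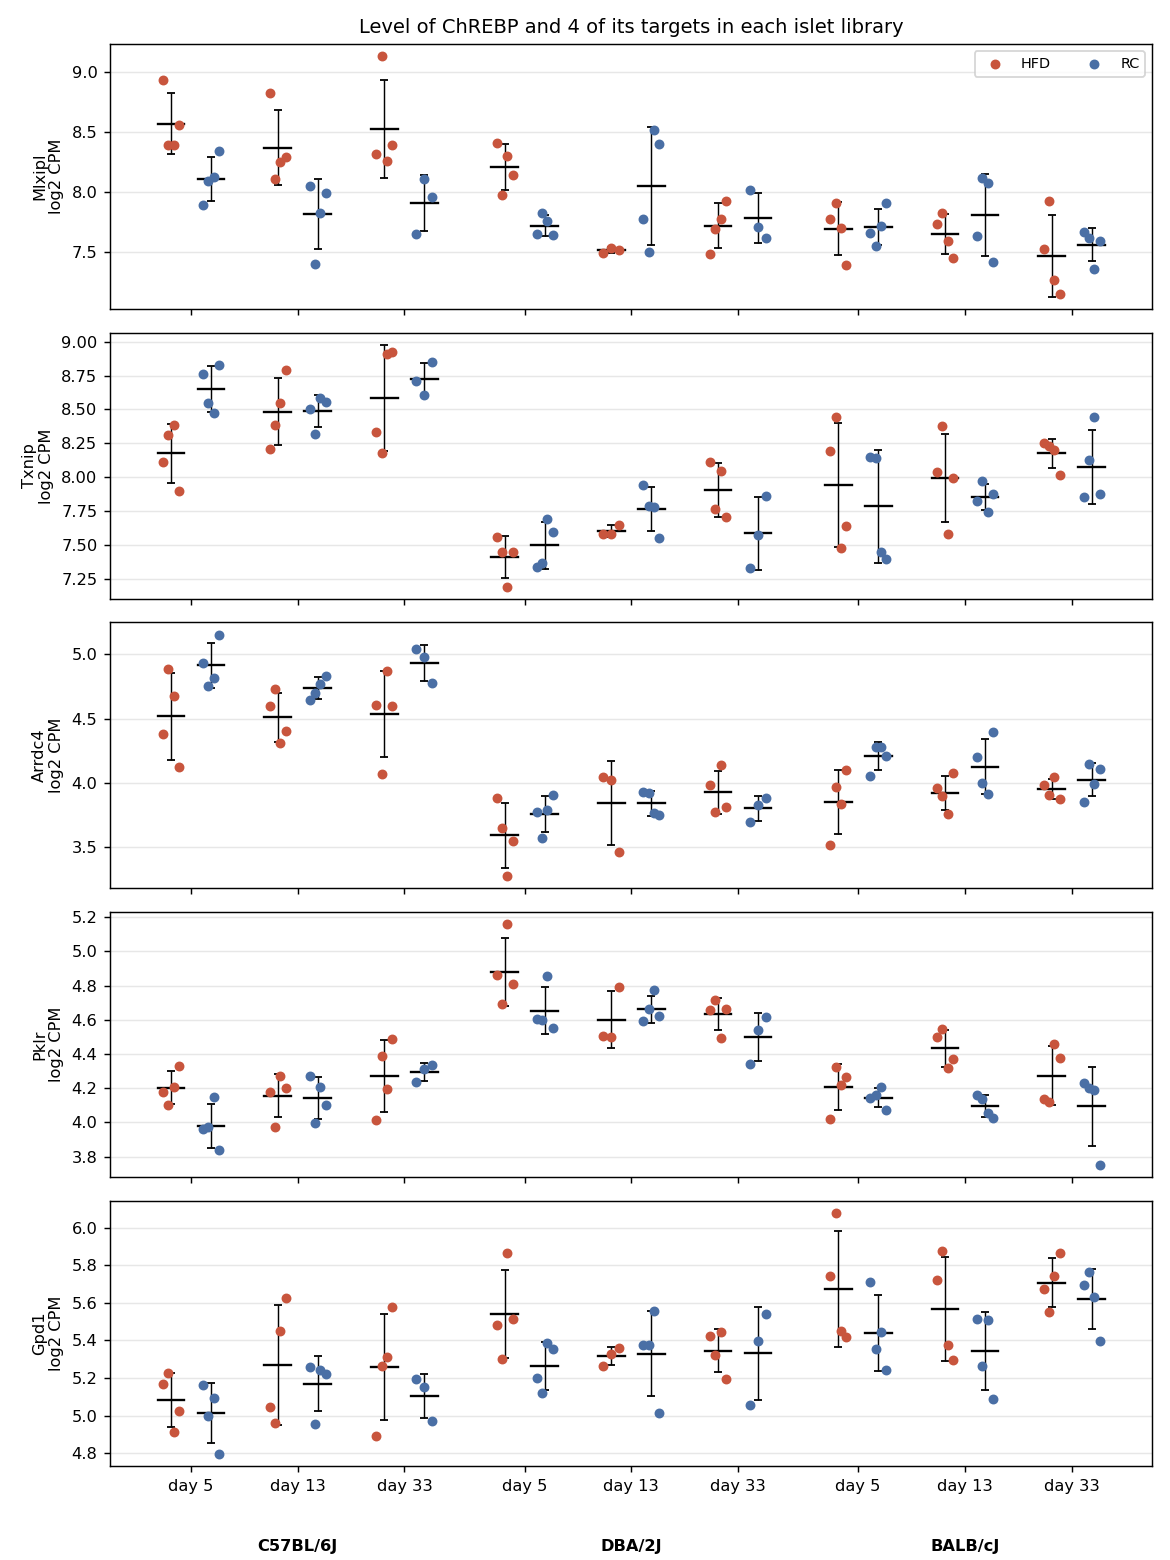
Level (log2 CPM) of Mlxipl, Txnip, Arrdc4, Pklr and Gpd1 in each of the 69 libraries, by strain and day, with HFD left of RC. Each point is 1 mouse the horizontal lines give the group means and the bars 1 SD. Mlxipl stood higher in HFD than in RC libraries at each day in C57BL/6J, and Txnip and Arrdc4 stood highest in C57BL/6J.

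Mlxipl rose on HFD in C57BL/6J over the 3 days together and passed the test in neither other strain. At day 5 the C57BL/6J HFD libraries had 8.40, 8.40, 8.56 and 8.94 log2 CPM of Mlxipl, against 7.89, 8.10, 8.13 and 8.34 in RC libraries. At day 13 they had 8.11, 8.26, 8.30 and 8.82 on HFD, against 7.41, 7.83, 8.00 and 8.05 on RC, and at day 33 8.26, 8.32, 8.40 and 9.13 on HFD, against 7.65, 7.96 and 8.11 on RC. Every HFD library lay above every RC library of its day. Such a gap, in either direction, was found for 10.8%, 9.85% and 8.73% of all genes at days 5, 13 and 33 in this strain.

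Averaged over the days, Mlxipl rose in C57BL/6J by 0.54 ± 0.11 on the log2 scale (± SE, as for all changes below, 95% interval 0.33 to 0.76, adjusted p = 0.000462, limma with Benjamini-Hochberg adjustment over all genes), which is 1.46-fold. In that comparison 14.6% of all genes passed the threshold of 0.05. In DBA/2J the change was -0.04 ± 0.11 (adjusted p = 0.999, limma), where 0% of genes passed and 599 had an unadjusted p under 0.05. In BALB/cJ it was -0.09 ± 0.10 (adjusted p = 0.837, limma), where 0.151% of genes passed. The average over the strains was 0.14 ± 0.06 (adjusted p = 0.177, limma), in a comparison that 5.47% of genes passed.

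The diet change of Mlxipl, averaged over the days, differed between strains by the test of the difference itself. DBA/2J minus C57BL/6J gave -0.58 ± 0.15, adjusted p = 0.0406 (limma), where 1.11% of genes passed, and BALB/cJ minus C57BL/6J gave -0.63 ± 0.15, adjusted p = 0.0288, where 1.27% passed. BALB/cJ minus DBA/2J gave -0.05 ± 0.15, where 0% of genes passed and 472 had an unadjusted p under 0.05. The call against DBA/2J was lost in 22 of 69 fits without 1 library, with differences of -0.64 to -0.51 and adjusted p of 0.0226 to 0.108. Those libraries were C57BL/6J HFD day 5 replicates 1 and 4, C57BL/6J RC day 5 replicate 1, C57BL/6J HFD day 13 replicates 1, 3 and 4, C57BL/6J RC day 13 replicates 2 and 3, C57BL/6J HFD day 33 replicate 2, C57BL/6J RC day 33 replicates 1 and 4, DBA/2J HFD day 5 replicates 2 and 4, DBA/2J RC day 5 replicates 2 and 3, DBA/2J HFD day 13 replicate 3, DBA/2J RC day 13 replicates 3 and 4, DBA/2J HFD day 33 replicates 1, 2 and 4, and DBA/2J RC day 33 replicate 1. The call against BALB/cJ was lost in 5 of 69 (adjusted p of 0.0108 to 0.0632), those without C57BL/6J RC day 5 replicate 1, C57BL/6J HFD day 33 replicate 2, C57BL/6J RC day 33 replicate 1, and BALB/cJ RC day 13 replicates 2 and 3. For Txnip, Arrdc4, Pklr and Gpd1 no such difference passed.

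In DBA/2J the order of the diets changed from day to day. At day 5 Mlxipl had 7.98, 8.15, 8.30 and 8.41 log2 CPM in HFD libraries, against 7.65, 7.66, 7.76 and 7.83 in RC libraries, ranges that did not overlap, as for 11.7% of all genes. At day 13 it had 7.49, 7.52 and 7.54 on HFD, against 7.51, 7.78, 8.40 and 8.52 on RC, and at day 33 7.48, 7.69, 7.78 and 7.93 on HFD, against 7.62, 7.72 and 8.02 on RC, with overlap at both days. The changes at days 5, 13 and 33 were 0.48 ± 0.18, -0.53 ± 0.19 and -0.07 ± 0.19, and none passed (adjusted p = 0.0869, 0.999 and 0.945, limma). In C57BL/6J the changes at these days were 0.46 ± 0.18, 0.55 ± 0.18 and 0.62 ± 0.19, and none passed (adjusted p = 0.173, 0.0957 and 0.150, limma). At day 5 the changes in DBA/2J and C57BL/6J were thus similar in size, and the strain difference was not tested at single days. In BALB/cJ the 12 HFD libraries ran from 7.15 through a median of 7.65 to 7.93 log2 CPM of Mlxipl and the 12 RC libraries from 7.36 through 7.65 to 8.12, so the diets overlapped.

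**Figure D3:**
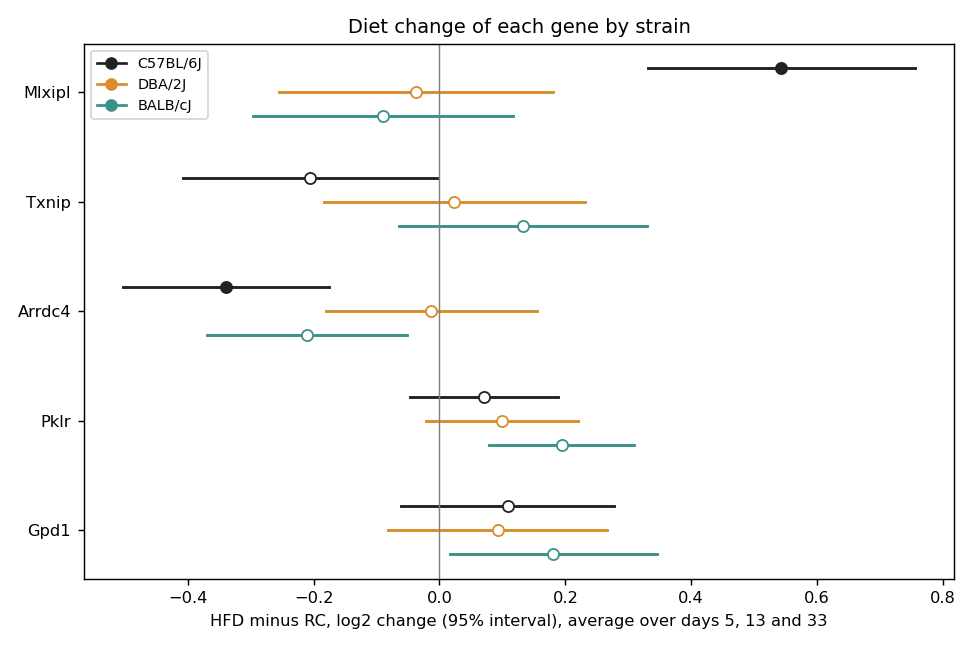
HFD minus RC change (log2, average over days 5, 13 and 33) of each gene in each strain, with its 95% interval from limma. Filled points passed the adjusted threshold of 0.05. The intervals of Mlxipl (0.54) and Arrdc4 (-0.34) in C57BL/6J are the ones so marked.

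Mlxipl varied from library to library together with RNAs that stay in the nucleus. With the group mean taken away, Pearson r over the 69 libraries was 0.80 with Meg3, 0.65 with Neat1 and 0.52 with Malat1, 3 long noncoding RNAs chosen after the values were seen. The other 4 genes had r of -0.23 to -0.21 with the mean of the 3, and all these values share the libraries' depth and preparation. That mean was 7.99 ± 0.61 log2 CPM in HFD libraries of C57BL/6J and 7.53 ± 0.49 in RC libraries (SD, n = 12 and 11). Of the 3, Meg3 rose on HFD in that strain (0.58 ± 0.17, adjusted p = 0.0136, limma), while Malat1 and Neat1 had 0.46 ± 0.26 and 0.35 ± 0.19 and did not pass.

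With the mean of the 3 nuclear RNAs as a covariate, an alternative chosen after seeing the data, the change of Mlxipl in C57BL/6J was 0.35 ± 0.08, adjusted p = 0.00368 (limma). The difference of DBA/2J minus C57BL/6J was then -0.28 ± 0.12, adjusted p = 0.371, and that of BALB/cJ minus C57BL/6J -0.28 ± 0.12, adjusted p = 0.547, so neither difference between strains passed. With that nuclear RNA covariate the change of Arrdc4 in C57BL/6J was -0.30 ± 0.09, adjusted p = 0.0223. The calls of both strain differences were also lost with title number, with the stellate and fibroblast score and with macrophage and endothelial scores as covariates.

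**Figure D4:**
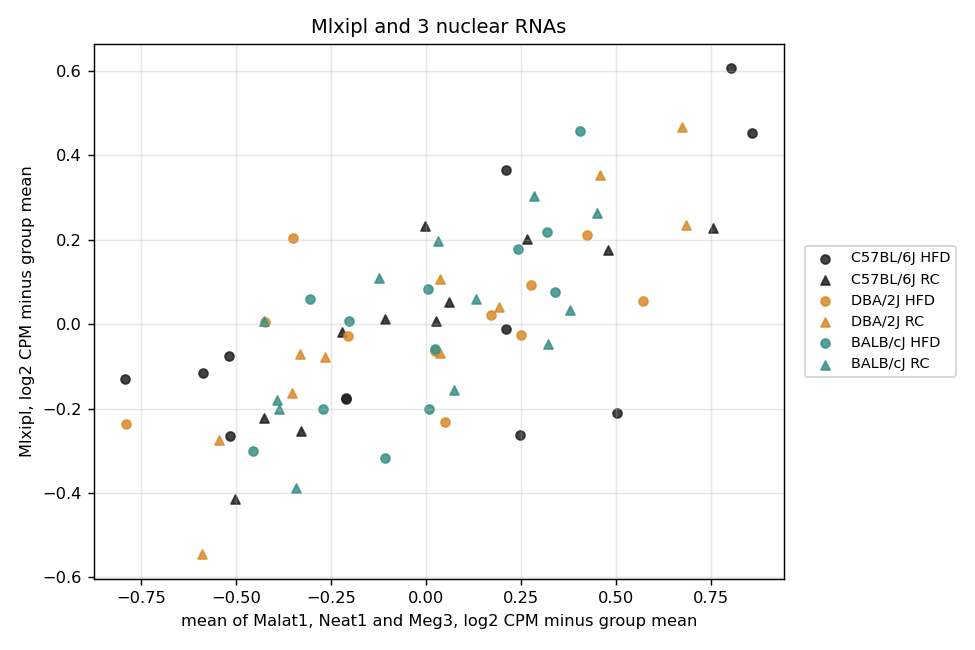
Mlxipl against the mean of Malat1, Neat1 and Meg3, each as log2 CPM minus the mean of the library's group, over 69 libraries of 3 strains and both diets. Libraries high in the nuclear RNAs were high in Mlxipl (Pearson r = 0.71).

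The change of Mlxipl in C57BL/6J was refitted beside markers of other cells, in a comparison that 14.6% of all genes passed. The 8 stellate cell and fibroblast markers, collagen genes among them, summed to 150.6 to 274.97 CPM in HFD libraries and 236 to 387 CPM in RC libraries, and 6 of the 8 fell. With their score as a covariate the change of Mlxipl was 0.43 ± 0.11, adjusted p = 0.0120 (limma). Of 8 macrophage markers 2 fell (Adgre1 and Lyz2), and of 7 endothelial markers 2 fell (Pecam1 and Emcn), each about 1 call above the share of all genes, and with both scores the change was 0.41 ± 0.11, adjusted p = 0.0134. None of the 10 acinar markers passed, with sums of 240 to 4339 CPM in HFD and 351 to 7450 CPM in RC libraries, and with their score it was 0.57 ± 0.11, adjusted p = 0.000272. Without day 5 it was 0.59 ± 0.14, adjusted p = 0.0275, whereas title number as a linear covariate gave 0.48 ± 0.29, adjusted p = 0.486.

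Arrdc4, the less abundant alpha-arrestin, fell on HFD in C57BL/6J. At day 5 it had 4.12, 4.38, 4.68 and 4.89 log2 CPM in HFD libraries, against 4.75, 4.81, 4.93 and 5.15 in RC libraries. At day 13 it had 4.31, 4.40, 4.60 and 4.73 on HFD, against 4.64, 4.70, 4.77 and 4.83 on RC, and at day 33 4.07, 4.60, 4.61 and 4.87 on HFD, against 4.77, 4.98 and 5.04 on RC. The diets overlapped at each day. Over the days 8 of the 12 HFD libraries lay below all 11 RC libraries, a count that was not set against all genes. The change in C57BL/6J was -0.34 ± 0.08, adjusted p = 0.00378 (limma), which is 0.791-fold, and over all strains it was -0.19 ± 0.05, adjusted p = 0.0111.

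In BALB/cJ Arrdc4 ran from 3.52 through a median of 3.93 to 4.10 log2 CPM in HFD libraries and from 3.86 through 4.13 to 4.39 in RC libraries, a change of -0.21 ± 0.08 that did not pass (adjusted p = 0.338, limma). In DBA/2J it ran from 3.28 through a median of 3.82 to 4.14 in HFD libraries and from 3.57 through 3.79 to 3.93 in RC libraries, which overlapped, with a change of -0.01 ± 0.08 (adjusted p = 0.999). Without day 5 the change was -0.31 ± 0.09, adjusted p = 0.0588 in C57BL/6J and -0.13 ± 0.05, adjusted p = 0.436 over all strains (limma), and both calls were lost. The call over all strains was also lost with title number (-0.26 ± 0.08, adjusted p = 0.0679), the stellate and fibroblast score or Fabp4 as a covariate, and the call in C57BL/6J with title number.

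Txnip, which has the paired motif in its promoter window, showed no diet call in any strain. In C57BL/6J at day 5 it had 7.90, 8.11, 8.31 and 8.39 log2 CPM in HFD libraries, against 8.47, 8.55, 8.76 and 8.83 in RC libraries, with HFD lower and no overlap, a gap found in either direction for 10.8% of all genes. At day 13 it had 8.21, 8.39, 8.55 and 8.79 on HFD, against 8.32, 8.50, 8.55 and 8.58 on RC, and at day 33 8.18, 8.33, 8.91 and 8.93 on HFD, against 8.60, 8.71 and 8.85 on RC, with overlap at both days. The change over the days was -0.21 ± 0.10, adjusted p = 0.163 in C57BL/6J, 0.02 ± 0.10, adjusted p = 0.999 in DBA/2J and 0.13 ± 0.10, adjusted p = 0.684 in BALB/cJ (limma). Fabp4, the one of 8 adipocyte markers in the table, had 4.45 to 7.70 CPM in HFD and 3.04 to 5.66 CPM in RC libraries of C57BL/6J, and with it as a covariate the change of Txnip there was -0.35 ± 0.09, adjusted p = 0.00799, past the threshold.

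The BALB/cJ libraries of day 5 fell into high and low levels of Txnip on both diets. HFD libraries had 7.48, 7.64, 8.20 and 8.45 log2 CPM of Txnip and RC libraries 7.39, 7.45, 8.14 and 8.15. On each diet the pair of libraries with the lower title numbers had the higher Txnip, and the diets overlapped.

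Pklr and Gpd1, the enzymes, showed small changes of the same sign in each strain. In BALB/cJ Pklr ran from 4.02 through a median of 4.32 to 4.55 log2 CPM in HFD libraries and from 3.75 through 4.15 to 4.23 in RC libraries. For Pklr there, 8 of the 12 HFD libraries lay above all RC libraries, a count that was not set against all genes. In DBA/2J it ran from 4.50 through 4.69 to 5.16 on HFD and from 4.34 through 4.60 to 4.86 on RC, and in C57BL/6J from 3.98 through 4.20 to 4.49 on HFD and from 3.84 through 4.15 to 4.34 on RC, with wide overlap. Over all strains and days Pklr rose by 0.12 ± 0.03 on the log2 scale (1.09-fold, adjusted p = 0.0234, limma). Within a strain it did not pass, with changes of 0.19 ± 0.06, adjusted p = 0.175 in BALB/cJ, 0.10 ± 0.06, adjusted p = 0.999 in DBA/2J and 0.07 ± 0.06, adjusted p = 0.448 in C57BL/6J.

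At day 13 in BALB/cJ Pklr had 4.32, 4.37, 4.50 and 4.55 log2 CPM in HFD libraries, against 4.02, 4.05, 4.14 and 4.16 in RC libraries. These ranges did not overlap, as for 6.03% of all genes, and the change of 0.34 ± 0.10 did not pass (adjusted p = 0.195, limma). The call over all strains was lost without day 5 (0.10 ± 0.04, adjusted p = 0.464) and without day 13 (0.13 ± 0.04, adjusted p = 0.0700), and with the stellate and fibroblast score or Fabp4 as a covariate.

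Gpd1 in C57BL/6J ran from 4.89 through a median of 5.20 to 5.63 log2 CPM in HFD libraries and from 4.79 through 5.15 to 5.26 in RC libraries. In DBA/2J it ran from 5.19 through 5.36 to 5.86 on HFD and from 5.01 through 5.38 to 5.55 on RC, and in BALB/cJ from 5.30 through 5.70 to 6.08 on HFD and from 5.09 through 5.48 to 5.77 on RC. The diets overlapped in each strain. The change was 0.13 ± 0.05, adjusted p = 0.112 over all strains (limma), and 0.11 ± 0.08, 0.09 ± 0.09 and 0.18 ± 0.08 in C57BL/6J, DBA/2J and BALB/cJ, none of which passed.

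Of the 5 genes, then, 1 rose (Pklr) and 1 fell (Arrdc4) over all strains, where 5.47% of all genes passed. In C57BL/6J, where 14.6% passed, 1 rose (Mlxipl) and 1 fell (Arrdc4). The 5 were chosen with earlier results of these data known, so these counts do not test the set. The median change of the 5 was 0.12 over all strains, against 0.00038 for all genes, and 0.07 in C57BL/6J, against -0.01. None of the 5 passed at any single day of any strain. There, at days 5, 13 and 33, 1.87%, 1.04% and 0% of all genes passed in C57BL/6J, 0.548%, 0% and 0.0205% in DBA/2J, and 0.315%, 0.00685% and 0% in BALB/cJ. Where no gene passed, 2180 (C57BL/6J at day 33), 599 (DBA/2J at day 13) and 669 (BALB/cJ at day 33) had an unadjusted p under 0.05. The diet change at day 33 minus that at day 5 passed for none of the 5 in C57BL/6J (0.0205% of genes), DBA/2J (0.0137%), BALB/cJ (0%, with 706 genes at an unadjusted p under 0.05) or their average (0.00685%).

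Between day 33 and day 5, 2 of the 5 genes differed in DBA/2J on HFD, a comparison that 23.3% of all genes passed. Txnip was higher at day 33 by 0.50 ± 0.17 on the log2 scale (adjusted p = 0.0277, limma), with 7.19, 7.44, 7.45 and 7.55 log2 CPM at day 5, 7.58, 7.58 and 7.65 at day 13 and 7.71, 7.77, 8.05 and 8.11 at day 33. Mlxipl gave -0.49 ± 0.18, adjusted p = 0.0402 and was lower at day 33. The nuclear RNA Meg3 was lower there too (-1.04 ± 0.28, adjusted p = 0.00668, limma). With the nuclear RNA covariate, chosen after seeing the data, the Mlxipl and Txnip calls were kept, and the part of Meg3 in the result was not tested. Arrdc4 (0.34 ± 0.14, adjusted p = 0.0661) and Pklr (-0.25 ± 0.10, adjusted p = 0.0603) did not pass. The Mlxipl call was lost in 6 of 69 fits without 1 library (DBA/2J HFD day 5 replicates 1, 3 and 4, and DBA/2J HFD day 33 replicates 1, 2 and 3), with adjusted p of 0.0241 to 0.132. The Txnip call was lost in 4 (DBA/2J HFD day 5 replicates 3 and 4, and DBA/2J HFD day 33 replicates 1 and 3), with adjusted p of 0.0214 to 0.137. Both calls were also lost with title number, Fabp4, the clock gene score or macrophage and endothelial scores as covariates. None of the 5 passed on HFD in C57BL/6J (0.233% of genes) or BALB/cJ (0.555%), or on RC in C57BL/6J (0.123%), DBA/2J (0.00685%) or BALB/cJ (0.00685%).

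Between strains, the alpha-arrestins stood highest in C57BL/6J. Under RC, Txnip ran from 7.32 through a median of 7.59 to 7.94 log2 CPM in DBA/2J, from 7.39 through 7.87 to 8.44 in BALB/cJ and from 8.32 through 8.58 to 8.85 in C57BL/6J. DBA/2J minus C57BL/6J was -1.01 ± 0.10, adjusted p = 2.05e-12 (limma) and BALB/cJ minus C57BL/6J -0.72 ± 0.10, adjusted p = 1.88e-08. BALB/cJ minus DBA/2J was 0.29 ± 0.10, adjusted p = 0.0208, a call lost in 4 of 69 fits without 1 library (DBA/2J RC day 33 replicate 1, BALB/cJ RC day 5 replicates 1 and 2, and BALB/cJ RC day 33 replicate 3). Such calls were common between the strains under RC: 54.5% of all genes passed for DBA/2J minus C57BL/6J, 56.3% for BALB/cJ minus C57BL/6J and 35.0% for BALB/cJ minus DBA/2J.

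Arrdc4 under RC ran from 3.57 through a median of 3.79 to 3.93 log2 CPM in DBA/2J, from 3.86 through 4.13 to 4.39 in BALB/cJ and from 4.64 through 4.81 to 5.15 in C57BL/6J. Every RC library of C57BL/6J lay above every RC library of the other strains, and the share of all genes with such a gap was not counted for RC. DBA/2J minus C57BL/6J was -1.06 ± 0.08, adjusted p = 1.24e-16 (limma), which is 0.480-fold. BALB/cJ minus C57BL/6J was -0.74 ± 0.08, adjusted p = 1.95e-11, and BALB/cJ minus DBA/2J was 0.32 ± 0.08, adjusted p = 0.00133.

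Pklr was highest in DBA/2J. Under RC, DBA/2J minus C57BL/6J was 0.47 ± 0.06, adjusted p = 2.50e-09 (limma, 1.38-fold) and BALB/cJ minus DBA/2J -0.49 ± 0.06, adjusted p = 3.08e-10, while BALB/cJ minus C57BL/6J was -0.03 ± 0.06 (95% interval -0.15 to 0.09). Every RC library of DBA/2J lay above every RC library of the other strains, the lowest at 4.343 log2 CPM against 4.337 for the highest of C57BL/6J. The share of all genes with such a gap was not counted for RC. Gpd1 was lowest in C57BL/6J: BALB/cJ minus C57BL/6J was 0.37 ± 0.08, adjusted p = 0.000174 and DBA/2J minus C57BL/6J 0.21 ± 0.09, adjusted p = 0.0335, while BALB/cJ minus DBA/2J was 0.16 ± 0.08 (95% interval -0.01 to 0.33). The Gpd1 call of DBA/2J minus C57BL/6J was lost in 8 of 69 fits without 1 library (adjusted p of 0.0125 to 0.0945), those without C57BL/6J RC day 5 replicate 4, C57BL/6J RC day 13 replicate 2, C57BL/6J RC day 33 replicate 4, DBA/2J RC day 5 replicates 3 and 4, DBA/2J RC day 13 replicate 3, and DBA/2J RC day 33 replicates 2 and 3.

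Mlxipl itself differed little between the strains on chow. DBA/2J minus C57BL/6J was -0.09 ± 0.11 (95% interval -0.31 to 0.12) and BALB/cJ minus DBA/2J -0.16 ± 0.11 (-0.37 to 0.05). BALB/cJ minus C57BL/6J was -0.25 ± 0.11, adjusted p = 0.0388 (limma), a call lost in 10 of 69 fits without 1 library (adjusted p of 0.0153 to 0.0930), those without C57BL/6J RC day 5 replicate 4, C57BL/6J RC day 13 replicates 1 and 4, C57BL/6J RC day 33 replicates 2 and 4, BALB/cJ RC day 5 replicates 1 and 2, BALB/cJ RC day 13 replicates 1 and 4, and BALB/cJ RC day 33 replicate 3. It was also lost with quantile normalization and with the stellate and fibroblast score. The partner Mlx was lowest in C57BL/6J, at 0.22 ± 0.04, adjusted p = 1.22e-05 for DBA/2J minus C57BL/6J and 0.26 ± 0.04, adjusted p = 2.55e-07 for BALB/cJ minus C57BL/6J.

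On chow the mean of Mlxipl was highest in C57BL/6J, at 7.95 log2 CPM against 7.86 in DBA/2J and 7.70 in BALB/cJ. Under HFD, Mlxipl was likewise highest in C57BL/6J, as were the alpha-arrestins. DBA/2J minus C57BL/6J was -0.67 ± 0.11, adjusted p = 2.46e-07 (limma, 58.6% of genes passed) and BALB/cJ minus C57BL/6J -0.88 ± 0.10, adjusted p = 1.10e-10 (54.5% of genes). In these comparisons Txnip gave -0.78 ± 0.10 and -0.38 ± 0.10 and Arrdc4 -0.73 ± 0.08 and -0.61 ± 0.08, all past the threshold. Pklr gave 0.49 ± 0.06 and 0.09 ± 0.06, of which the first passed, and Gpd1 0.20 ± 0.08 and 0.44 ± 0.08, both past the threshold. For BALB/cJ minus DBA/2J (35.1% of genes) Txnip, Pklr and Gpd1 passed, at 0.40 ± 0.10, -0.40 ± 0.06 and 0.25 ± 0.08.

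Acinar markers differed between the strains as well. Under RC they summed to a median of 2798 CPM in DBA/2J, 2523 CPM in BALB/cJ and 680 CPM in C57BL/6J, and 9 of 10 were higher in DBA/2J, and 7 of 10 in BALB/cJ, than in C57BL/6J, in comparisons that 54.5% and 56.3% of all genes passed. With the acinar score as a covariate the RC calls of Txnip, Arrdc4, Pklr and Gpd1 were kept, and that of Mlxipl was lost (-0.20 ± 0.11, adjusted p = 0.128, limma). With macrophage and endothelial scores, Gpd1 for DBA/2J minus C57BL/6J was -0.03 ± 0.14, adjusted p = 0.908, Gpd1 for BALB/cJ minus C57BL/6J 0.13 ± 0.14, adjusted p = 0.499 and Mlxipl for BALB/cJ minus C57BL/6J 0.02 ± 0.16, adjusted p = 0.955. These cell type covariates were chosen after seeing the data.

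Within groups the 5 genes did not vary as one block. The deviations of the 69 libraries from their group means were correlated for the 10 pairs of genes, with 100000 two-sided permutations within groups and p adjusted over the 10 pairs. The enzymes Pklr and Gpd1 went together (Pearson r = 0.58, adjusted p = 0.0001 by permutation, and Spearman rho = 0.53, adjusted p = 0.0005), with r of 0.61 in C57BL/6J, 0.64 in DBA/2J and 0.52 in BALB/cJ, and 0.54 without the 2 libraries farthest from the median of Pklr. The unadjusted p of this pair was 1e-05, the smallest the permutations can give. Within strains this pair passed by Pearson r in DBA/2J only (adjusted p = 0.03235 by permutation) and by Spearman rho in BALB/cJ only (adjusted p = 0.0468 by permutation). Txnip and Gpd1 also went together (Pearson r = 0.52, adjusted p = 0.0039 by permutation, and Spearman rho = 0.46, adjusted p = 0.0075), with r of 0.49 in C57BL/6J, 0.48 in DBA/2J and 0.57 in BALB/cJ, and 0.46 without the 2 farthest libraries. Within a single strain the pair of Txnip and Gpd1 did not pass (Pearson adjusted p = 0.236, 0.154 and 0.130 by permutation, in the same order).

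Mlxipl and Arrdc4 went in opposite directions (Pearson r = -0.38, adjusted p = 0.0157 by permutation, and Spearman rho = -0.37, adjusted p = 0.0167), with r of -0.41 in C57BL/6J, -0.27 in DBA/2J and -0.46 in BALB/cJ. Without the 2 libraries farthest from the median of Mlxipl, Pearson r was -0.31 (adjusted p = 0.0726) and did not pass, and Spearman rho was -0.34 (adjusted p = 0.0466) and passed, by permutation. Arrdc4 and Pklr gave Pearson r = -0.34, adjusted p = 0.0498 by permutation, and Spearman rho = -0.31, adjusted p = 0.0595, with r of -0.57 in C57BL/6J, -0.55 in DBA/2J and 0.15 in BALB/cJ, and -0.30 (adjusted p = 0.0823) without the 2 farthest libraries, by permutation. The relation of Arrdc4 and Pklr thus had the opposite sign in BALB/cJ. Neither this pair nor Mlxipl and Arrdc4 passed within a single strain. Txnip and Arrdc4, the alpha-arrestins, did not pass over all libraries (Pearson r = 0.29, adjusted p = 0.106 by permutation, and Spearman rho = 0.28, adjusted p = 0.0936), with r of 0.51 in C57BL/6J, 0.54 in DBA/2J and -0.05 in BALB/cJ. Within DBA/2J this pair passed by Pearson r (adjusted p = 0.03235 by permutation) and not by Spearman rho (adjusted p = 0.0972 by permutation). Mlxipl did not pass with Txnip (r = -0.19), Pklr (0.11) or Gpd1 (0.04), nor did Txnip with Pklr (0.12) or Arrdc4 with Gpd1 (-0.16).

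**Figure D5:**
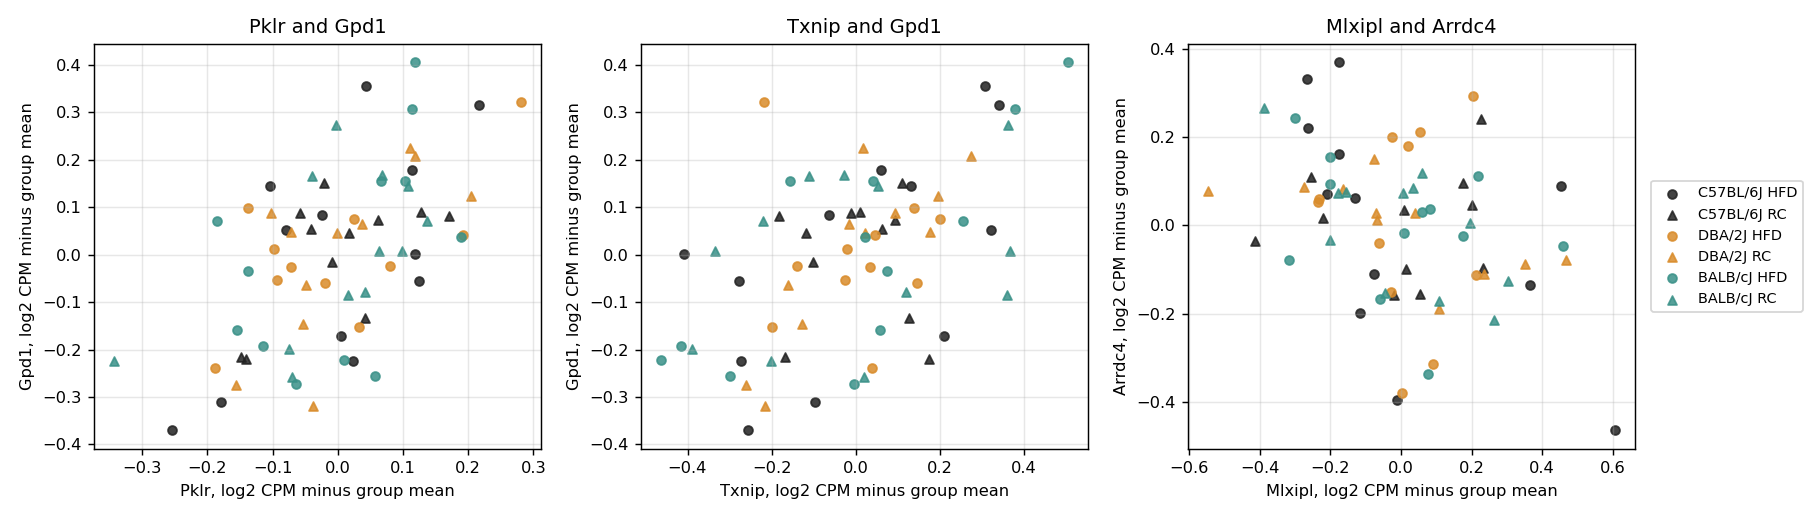
Deviations from the group mean (log2 CPM) of pairs of the genes over 69 libraries of 3 strains and both diets. Pearson r was 0.58 for Pklr and Gpd1, 0.52 for Txnip and Gpd1 and -0.38 for Mlxipl and Arrdc4.

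Each of the 5 genes had its own nearest genes over the 69 libraries, by Pearson r with the group mean taken away and with no test. They were Fbxl12 (0.88), Zdhhc1 (0.84), Lmtk3 (0.84), Ppox (0.84) and Clasrp (0.84) for Mlxipl. For Txnip they were Cited2 (0.73), Eif4b (0.70), Rin2 (0.69), Klf11 (0.66) and Btg1 (0.65), and for Arrdc4 Fto (0.59), Nbas (0.59), Pam (0.57), Dsc2 (0.57) and Nuak1 (0.56). For Pklr they were Fam151a (0.77), Slc2a5 (0.73), Wdr6 (0.72), Flot1 (0.69) and Haghl (0.69), and for Gpd1 Mpp3 (0.84), Cd164l2 (0.82), Cyb5r3 (0.80), Pfkm (0.78) and Kctd13 (0.78). Slc2a5, near Pklr, encodes the fructose transporter GLUT5, and Pfkm, near Gpd1, the muscle phosphofructokinase of glycolysis.

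Over the 18 group means, with the strain mean taken away, the nearest genes were Zdhhc1 (0.97), Leng8 (0.95), Shfl (0.95), Pcsk4 (0.95) and Brf1 (0.94) for Mlxipl. They were Podxl (0.90), Mmrn2 (0.87), Hbp1 (0.82), Kdsr (0.80) and Trmt9b (0.80) for Txnip and Lgalsl (0.90), Cd93 (0.89), Rpe (0.88), Prrx1 (0.87) and Ppp1r42 (0.86) for Arrdc4. For Pklr they were Mtmr11 (0.87), Mpdu1 (0.85), Aqp7 (0.82), Chpf2 (0.82) and Wdr6 (0.81), and for Gpd1 Samm50 (0.88), Rps6 (0.87), Pars2 (0.87), Arhgef17 (0.87) and Tmem53 (0.86). Zdhhc1 was near Mlxipl, and Wdr6 near Pklr, by both measures.

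Other genes of the pathway were read against the share of all genes that passed, 5.47% over all strains and 14.6% in C57BL/6J. Of 20 partners and regulators in the table (21 listed), none passed over all strains and 2 passed in C57BL/6J, not above those shares. Nr1h2, the liver X receptor beta, rose by 0.26 ± 0.08 (adjusted p = 0.0320, limma), and Prkaa2, a catalytic subunit of AMPK, fell (-0.25 ± 0.08, adjusted p = 0.0347). The median of the 20 in C57BL/6J was -0.0034. Mlx and Mlxip gave 0.03 ± 0.04 and 0.09 ± 0.04 there and did not pass.

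Of 32 other reported ChREBP targets in the table (36 listed), 2 rose over all strains, where 5.47% of all genes passed. They were Bhlhe41, a circadian repressor (0.21 ± 0.04, adjusted p = 0.00102, limma), and Nnat, neuronatin, which takes part in insulin secretion (0.36 ± 0.09, adjusted p = 0.00971). In C57BL/6J, Nnat rose (0.81 ± 0.15, adjusted p = 0.000342) and 3 genes fell: Me1, the malic enzyme that makes NADPH (-0.24 ± 0.07, adjusted p = 0.00912), Mttp, which loads lipid on lipoproteins (-0.23 ± 0.07, adjusted p = 0.0237), and Ccnd2, a cyclin (-0.18 ± 0.05, adjusted p = 0.0109). In BALB/cJ, where 0.151% of all genes passed, 1 of the 32 rose (Bhlhe41, 0.35 ± 0.07, adjusted p = 0.0112, limma). In DBA/2J, where 0% of all genes passed, none of the 32 did. The counts of 2 over all strains and 4 in C57BL/6J, where 14.6% of all genes passed, are near the shares of all genes and show nothing particular to these targets. The median change of the 32 was 0.04 over all strains and -0.05 in C57BL/6J.

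Of 14 alpha-arrestin and thioredoxin genes in the table (15 listed), Txnrd2, the mitochondrial thioredoxin reductase, rose over all strains (0.12 ± 0.03, adjusted p = 0.0255, limma), where 5.47% of all genes passed. In C57BL/6J, where 14.6% passed, Prdx1, a peroxiredoxin, and Il1b, which encodes interleukin-1 beta, fell (-0.18 ± 0.06, adjusted p = 0.0367, and -0.73 ± 0.17, adjusted p = 0.00248). Of 23 glycolysis and pyruvate genes (24 listed), Aldoc, an aldolase, and Slc16a1, the monocarboxylate transporter MCT1, rose over all strains (0.24 ± 0.06, adjusted p = 0.00614, and 0.31 ± 0.08, adjusted p = 0.00966). In C57BL/6J Aldoc rose (0.39 ± 0.10, adjusted p = 0.00537), and Pgk1, a glycolytic kinase, and Pdha1, a pyruvate dehydrogenase subunit, fell (-0.23 ± 0.06, adjusted p = 0.00428, and -0.12 ± 0.04, adjusted p = 0.0145). In both lists the counts are near the shares of all genes. The relatives Arrdc3 and Pkm gave 0.08 ± 0.05 and -0.03 ± 0.03 over all strains and did not pass.

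Of 10 shuttle genes 1, the cytosolic malate dehydrogenase Mdh1, fell over all strains (-0.14 ± 0.03, adjusted p = 0.00211, limma) and in C57BL/6J (-0.26 ± 0.05, adjusted p = 0.000495), and Gpd2 and Gpd1l gave -0.07 ± 0.05 and 0.01 ± 0.02 over all strains and did not pass. A count of 1 of 10 is near the shares of all genes, 5.47% over all strains and 14.6% in C57BL/6J. Of 17 circadian clock genes, 9 rose and 3 fell over all strains, with 0.93 ± 0.13, adjusted p = 1.30e-05 for Dbp and -0.75 ± 0.13, adjusted p = 0.000117 for Arntl, which were picked as examples after their values were seen. By strain, 7 rose and 4 fell in C57BL/6J, none of the 17 passed in DBA/2J, where 0% of all genes passed, and 3 rose in BALB/cJ (0.151% of all genes). Whether the clock gene changes differed between strains was not tested. With a clock gene score as a covariate, an alternative chosen after seeing the data, the change of Mlxipl in C57BL/6J was 0.56 ± 0.13, adjusted p = 0.00843 (limma). That of Arrdc4 in C57BL/6J was -0.27 ± 0.10, adjusted p = 0.0779 and that of Pklr over all strains 0.06 ± 0.04, adjusted p = 0.494, so both calls were lost.

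Between strains under RC, 10 of the 32 other targets were higher and 9 lower in DBA/2J than in C57BL/6J, and 12 were higher and 6 lower in BALB/cJ than in C57BL/6J. These counts are near the shares of all genes that passed, 54.5% and 56.3%, and show nothing particular to the targets. Klf10, a glucose-induced repressor of transcription, Rgs16, a regulator of G-protein signalling, and Slc2a2, the glucose transporter GLUT2, were highest in C57BL/6J. DBA/2J minus C57BL/6J and BALB/cJ minus C57BL/6J were -0.59 ± 0.09 and -0.80 ± 0.09 for Klf10 (adjusted p = 1.56e-07 and 1.78e-11, limma). They were -0.41 ± 0.11 and -0.54 ± 0.11 for Rgs16 (adjusted p = 0.00129 and 1.85e-05), and -0.29 ± 0.09 and -0.44 ± 0.08 for Slc2a2 (adjusted p = 0.00399 and 1.20e-05). These 3 were chosen after their values were seen, from a list in which 10 of the 32 were higher in DBA/2J, and 12 in BALB/cJ, than in C57BL/6J. Gpd2 gave -0.45 ± 0.09 and -0.37 ± 0.09 in the same comparisons (adjusted p = 2.35e-05 and 0.000225), the opposite sign to Gpd1.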

How the data were processed

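RNA was measured by stranded mRNA sequencing (125 bp single reads) of islets in 69 libraries. Per the submitters' processing notes, STAR 2.5.3a, HTSeq 0.9.1, edgeR and GRCm38 were used, the one genome build they name, for all strains. The values deposited by the authors are log2 CPM, in which zeros sit at a small prior count, and 100% of them gave whole reads within 0.05 when the scale was undone. Of 72 samples, 3 lacked a column in the table and are left aside. One mean per group was fitted to all 14604 genes with limma 3.58.1 (R 4.3.3, lmFit, then eBayes with trend), p-values were adjusted by Benjamini-Hochberg within each comparison, and 0.05 was the threshold. The fit was tested on simulated data. Symbols and exon lengths came from GENCODE mouse release 21 (14589 identifiers matched, 26 symbols taken from it). A planned edgeR fit was not run, and voom with TMM factors on recovered reads took its place. Correlations used scipy 1.17.1. Each library is 1 mouse, and p-values measure the spread between mice of a group. The genes named besides the 5 are the called members of each list (up to 4 a list and diet comparison), the relatives of the 5 and the 5 nearest by correlation, with exceptions stated. The 5 genes and the lists were chosen with earlier results of these data known. Alternatives covered scaling, filters, weights, title number, cell type scores, days and single libraries left out. Intervals cover the spread between libraries, and reads are not single molecules.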

Additional observations from a re-analysis of the deposited data

Results flagged for a closer look

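In groups of 4 libraries the highest and the lowest value of each of the 5 genes were set against the other 3 libraries, and 3 of 75 tests stood out, where chance gives about 1 in 20. Mlxipl had 9.13 log2 CPM in C57BL/6J HFD day 33 replicate 2, against 8.26 to 8.40 in the other libraries of that group. Pklr had 3.75 log2 CPM in BALB/cJ RC day 33 replicate 4, against 4.19 to 4.23. Gpd1 had 4.95 log2 CPM in C57BL/6J RC day 13 replicate 2, against 5.22 to 5.26. The Mlxipl change in C57BL/6J kept its call without any one of the 69 libraries (0.48 to 0.58 on the log2 scale, adjusted p of 0.000216 to 0.00300, limma).

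The diet change of Mlxipl, averaged over the days, differed between strains by a test of the difference, at -0.58 on the log2 scale for DBA/2J minus C57BL/6J and -0.63 for BALB/cJ minus C57BL/6J. Both calls were lost with the mean of Malat1, Neat1 and Meg3 as a covariate, as the text gives. What part nuclear RNA has in the result was not tested.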

How the results depend on the processing

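The HFD minus RC changes of the 5 genes gave 335 values under the other settings, of which 314 kept their side of the threshold, 14 lost a call, 7 gained one and 0 changed sign with a call. limma-voom with TMM factors on the recovered reads, log2(CPM + 1), the filter at a mean of 1 log2 CPM and the title number as a random block changed no diet call of the 5 genes. The planned edgeR fit was not run, although recovered reads were at hand. No paired analysis was possible because the replicate numbers only name the libraries. Where a call changed below, the cause was not tested. Title number and day cannot be told apart between days 5 and 33 in DBA/2J on HFD. Alternatives with nuclear RNA, clock or, for strains and days, cell type scores were chosen after seeing the data. The adipocyte score below is Fabp4 alone, the 1 of 8 listed markers in the table.

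Array weights gave Mlxipl over all strains 0.147 (adjusted p = 0.0293, call gained), Gpd1 over all strains 0.116 (adjusted p = 0.0270, call gained), 20.9% of genes called over all strains (reported 5.47%), Gpd1 in C57BL/6J 0.164 (adjusted p = 0.0476, call gained), 33.4% of genes called in C57BL/6J (reported 14.6%), 1.09% of genes called in DBA/2J (reported 0%) and 0.349% of genes called in BALB/cJ (reported 0.151%). Fits without day 13 gave Mlxipl over all strains 0.231 (adjusted p = 0.0326, call gained), Pklr over all strains 0.134 (adjusted p = 0.0700, call lost), 5.06% of genes called in C57BL/6J (reported 14.6%), 0.0342% of genes called in DBA/2J (reported 0%) and 0.0342% of genes called in BALB/cJ (reported 0.151%). Nuclear RNA score as a covariate gave Mlxipl over all strains 0.165 (adjusted p = 0.0151, call gained), 7.51% of genes called in C57BL/6J (reported 14.6%), 0.0205% of genes called in BALB/cJ (reported 0.151%), Mlxipl for HFD effect in DBA/2J minus HFD effect in C57BL/6J -0.282 (adjusted p = 0.371, call lost) and Mlxipl for HFD effect in BALB/cJ minus HFD effect in C57BL/6J -0.278 (adjusted p = 0.547, call lost). Title number as a linear covariate within each strain gave Arrdc4 over all strains -0.261 (adjusted p = 0.0679, call lost), 2.93% of genes called over all strains (reported 5.47%), Mlxipl in C57BL/6J 0.484 (adjusted p = 0.486, call lost), Arrdc4 in C57BL/6J -0.536 (adjusted p = 0.279, call lost), 0.212% of genes called in C57BL/6J (reported 14.6%), Pklr in BALB/cJ 0.211 (adjusted p = 0.0435, call gained), 1.40% of genes called in BALB/cJ (reported 0.151%), Mlxipl for HFD effect in DBA/2J minus HFD effect in C57BL/6J -0.531 (adjusted p = 0.612, call lost), Mlxipl for HFD effect in BALB/cJ minus HFD effect in C57BL/6J -0.515 (adjusted p = 0.674, call lost), Mlxipl for day 33 minus day 5 under HFD in DBA/2J 0.00949 (adjusted p = 0.997, sign reversed and call lost) and Txnip for day 33 minus day 5 under HFD in DBA/2J 0.321 (adjusted p = 0.887, call lost). Stellate and fibroblast score as a covariate gave Arrdc4 over all strains -0.162 (adjusted p = 0.0833, call lost), Pklr over all strains 0.114 (adjusted p = 0.0951, call lost), 1.99% of genes called over all strains (reported 5.47%), 7.68% of genes called in C57BL/6J (reported 14.6%), Mlxipl for BALB/cJ minus C57BL/6J under RC -0.109 (adjusted p = 0.464, call lost), Mlxipl for HFD effect in DBA/2J minus HFD effect in C57BL/6J -0.514 (adjusted p = 0.0747, call lost), Mlxipl for HFD effect in BALB/cJ minus HFD effect in C57BL/6J -0.560 (adjusted p = 0.0609, call lost) and Mlxipl for day 33 minus day 5 under HFD in DBA/2J -0.425 (adjusted p = 0.0648, call lost). Adipocyte score as a covariate gave Arrdc4 over all strains -0.166 (adjusted p = 0.0974, call lost), Pklr over all strains 0.130 (adjusted p = 0.0696, call lost), 2.87% of genes called over all strains (reported 5.47%), Txnip in C57BL/6J -0.352 (adjusted p = 0.00799, call gained), 0.0411% of genes called in BALB/cJ (reported 0.151%), Mlxipl for day 33 minus day 5 under HFD in DBA/2J -0.476 (adjusted p = 0.0532, call lost) and Txnip for day 33 minus day 5 under HFD in DBA/2J 0.372 (adjusted p = 0.0617, call lost). Fits without day 5 gave Arrdc4 over all strains -0.128 (adjusted p = 0.436, call lost), Pklr over all strains 0.0965 (adjusted p = 0.464, call lost), 0.137% of genes called over all strains (reported 5.47%), Arrdc4 in C57BL/6J -0.310 (adjusted p = 0.0588, call lost), 2.65% of genes called in C57BL/6J (reported 14.6%) and 0.0479% of genes called in BALB/cJ (reported 0.151%). Clock gene score as a covariate gave Arrdc4 over all strains -0.138 (adjusted p = 0.282, call lost), Pklr over all strains 0.0612 (adjusted p = 0.494, call lost), 0.0205% of genes called over all strains (reported 5.47%), Arrdc4 in C57BL/6J -0.267 (adjusted p = 0.0779, call lost), 8.46% of genes called in C57BL/6J (reported 14.6%), 0% of genes called in BALB/cJ (reported 0.151%), Mlxipl for HFD effect in DBA/2J minus HFD effect in C57BL/6J -0.591 (adjusted p = 0.0561, call lost), Mlxipl for day 33 minus day 5 under HFD in DBA/2J -0.475 (adjusted p = 0.0717, call lost) and Txnip for day 33 minus day 5 under HFD in DBA/2J 0.490 (adjusted p = 0.0510, call lost). Fits without day 33 gave 2.80% of genes called over all strains (reported 5.47%) and 0.0411% of genes called in BALB/cJ (reported 0.151%). Macrophage and endothelial scores as covariates gave 9.40% of genes called in C57BL/6J (reported 14.6%), Gpd1 for DBA/2J minus C57BL/6J under RC -0.0274 (adjusted p = 0.908, sign reversed and call lost), 26.8% of genes called for DBA/2J minus C57BL/6J under RC (reported 54.5%), Mlxipl for BALB/cJ minus C57BL/6J under RC 0.0161 (adjusted p = 0.955, sign reversed and call lost), Gpd1 for BALB/cJ minus C57BL/6J under RC 0.135 (adjusted p = 0.499, call lost), 27.9% of genes called for BALB/cJ minus C57BL/6J under RC (reported 56.3%), Mlxipl for HFD effect in DBA/2J minus HFD effect in C57BL/6J -0.460 (adjusted p = 0.111, call lost), Mlxipl for HFD effect in BALB/cJ minus HFD effect in C57BL/6J -0.543 (adjusted p = 0.0772, call lost), Mlxipl for day 33 minus day 5 under HFD in DBA/2J -0.416 (adjusted p = 0.0744, call lost) and Txnip for day 33 minus day 5 under HFD in DBA/2J 0.465 (adjusted p = 0.0539, call lost). Quantile normalization gave 0.00685% of genes called in DBA/2J (reported 0%), Mlxipl for BALB/cJ minus C57BL/6J under RC -0.198 (adjusted p = 0.122, call lost) and Txnip for day 33 minus day 5 under HFD in DBA/2J 0.423 (adjusted p = 0.0665, call lost). Each strain fitted alone gave 0.0205% of genes called in BALB/cJ (reported 0.151%). Acinar score as a covariate gave Mlxipl for BALB/cJ minus C57BL/6J under RC -0.205 (adjusted p = 0.128, call lost). The libraries within BALB/cJ gave a correlation of Arrdc4 and Pklr of the opposite sign (r = 0.15).

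Without any one of the 69 libraries no diet call of the 5 genes changed. The share of genes called ranged over 3.96% to 8.31% over all strains, 8.89% to 18.7% in C57BL/6J, 0% to 0.00685% in DBA/2J and 0.0685% to 0.397% in BALB/cJ. Under RC the ranges were 0.18 to 0.26 for Gpd1 in DBA/2J minus C57BL/6J, -0.30 to -0.21 for Mlxipl in BALB/cJ minus C57BL/6J and 0.24 to 0.33 for Txnip in BALB/cJ minus DBA/2J. For the differences of the Mlxipl change they were -0.64 to -0.51 for DBA/2J and -0.68 to -0.57 for BALB/cJ, each minus C57BL/6J, and for day 33 minus day 5 in DBA/2J on HFD -0.57 to -0.41 for Mlxipl and 0.43 to 0.57 for Txnip. With 3 or 4 libraries a group, a change at a single day carried an SE of up to 0.19 on the log2 scale, and Arrdc4 rested on 181 to 966 reads.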
